A study of Mus musculus with 5 samples.

Results

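The E2F transcription factors and the retinoblastoma (pocket) proteins were followed in sympathetic neurons with and without *Hif1a*. The genes were chosen by name, as the 8 E2F genes *E2f1* to *E2f8* and the pocket protein genes *Rb1* and *Rbl1*, and all 10 were found by Ensembl identifier among the 20224 genes of the count table. Bulk RNA-seq had been performed on neurons of the stellate ganglia and thoracic sympathetic chain of E14.5 mouse embryos, with 100 sorted cells in each library. Both genotypes carried the *Isl1Cre* knock-in, the *tdTomatoAi14* reporter, and the *Prph-eGFP* transgene, and cells positive for both fluorescent proteins were collected. The 2 control libraries (replicates 5 and 6) carried *Hif1a loxP/+* and the 3 *Hif1aCKO* libraries (replicates 3, 4, and 5) carried *Hif1a loxP/loxP*. The controls therefore had 1 floxed allele in Cre-expressing cells, and every library came from an animal whose Cre replaced 1 copy of *Isl1*. The Cre is active wherever *Isl1* is expressed and not in sympathetic neurons alone. The series labels also name embryos without *Isl1-Cre* as controls of the wider study, but a cell without Cre would not have been sorted for tdTomato.

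E2F proteins bind DNA with a dimerization partner and set the expression of genes for DNA replication and division. E2F1, E2F2, and E2F3 act mainly as activators, E2F4 and E2F5 repress together with pocket proteins in resting cells, E2F6 represses through Polycomb-type complexes, and E2F7 and E2F8 repress without a partner or a pocket protein. The pocket proteins RB1 and p107, the product of *Rbl1*, hold E2Fs inactive until cyclin-dependent kinases phosphorylate them. Sympathetic neuroblasts are unusual among neurons in that they divide while already expressing neuronal genes, and they leave the cell cycle around this stage.

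Several genes of this family are themselves known E2F targets, so the letters of E2F sites in their promoters are shown. RefSeq promoter windows (assembly GRCm38.p6, 250 bases before to 50 bases after an annotated start) were matched for 7 of the 10 genes, in 9 windows. Each window was searched on both strands for TTTCCCGC, TTTCGCGC, TTTGCCGC, and TTTGGCGC, 4 strings of 8 letters that cannot occupy the same bases on the same strand. Of the 9 windows, 4 held at least 1 of them, compared with 2.26% of 32851 mouse promoter windows of the same length. The matches are printed 5′ to 3′ on the strand of the gene, with the E2F letters in capitals.
*E2f2* (chr4:136172294-136172323, plus strand): cgaatttggcggcatatagTTTGGCGCtaa
*E2f3* (chr13:29986056-29986085, minus strand): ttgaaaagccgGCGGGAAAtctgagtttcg
*E2f7* (chr10:110745230-110745259, plus strand): cccgcgtccccGCGGGAAAcgctcccgcgt
*Rbl1* (chr2:157204534-157204563, minus strand): aagaaggcgatTTTCGCGCgctttgtcgcg
Counted from the RefSeq start, the first letter of the match lay at -11 in *E2f3*, -18 in *Rbl1*, -198 in *E2f7*, and 39 in *E2f2*. For *E2f1* the only RefSeq window surrounds a start site 466 bases inside the gene as GENCODE annotates it. None of these letters were found in that window. The letters TTTGAA, the cell cycle homology region through which the MuvB complex binds late cell cycle genes, were present in 3 of the 9 windows and in 17.9% of all windows. For 2 of these they are shown in capitals, with the first letter at -23 in *E2f3* and -20 in *E2f8*.
*E2f3* (chr13:29986069-29986098, minus strand): atgcaaatatggTTTGAAaagccggcggga
*E2f8* (chr7:48881599-48881628, minus strand): gagcgggttaatTTCAAAtcgggggctgga
The remaining window belonged to a downstream start of *E2f2*. A match of letters describes the sequence and does not show that a protein was bound.

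Counts per library summed to between 8254211 and 9700887. The quasi-likelihood test of edgeR was fitted to the 15032 genes that passed its filter on low counts, and all 10 genes passed it. Calls required that the adjusted p-value be under 0.05, that the log2 fold change exceed 0.3 in size, and that normalized counts average 50 or more. Normalized counts are counts divided by the effective library size and scaled to the mean of the libraries. *Hif1a* had between 1584 and 2086 normalized counts in control and between 1757 and 2747 in *Hif1aCKO* libraries. The deleted exon is a small part of the transcript and counts were summed over the gene, so these values do not check the deletion. *Isl1*, whose locus drives Cre, was lower in *Hif1aCKO* neurons (log2 fold change -0.67), while *Prph*, whose promoter drives eGFP, had a log2 fold change of 0.15. The 9 sympathetic neuron markers summed to between 5981 and 7264 CPM (counts scaled to a fixed library total) in control and between 5217 and 5403 CPM in *Hif1aCKO* libraries. The markers did not move together, since 6 had a log2 fold change below 0 and 3 above it. The groups did not overlap for 4 lower markers, *Isl1* among them, and for 1 higher marker, *Hand2* (log2 fold change 0.59). Over all genes, 12.9% did not overlap in each direction. The Schwann cell precursor markers *Fabp7*, *Erbb3*, and *Sox10* had 926, 50, and 8 counts in *Hif1aCKO* replicate 3 and at most 9, 2, and 1 in the others. The summed markers of sensory neurons, chromaffin cells, and mesenchyme overlapped between the groups. Those of endothelium were at most 4.23 CPM and lower in *Hif1aCKO*, and that of erythroid cells was at most 3.65 CPM and higher. The genes counted included only 3 of 6 listed sensory, 3 of 6 mesenchyme, 2 of 5 endothelium, and 1 of 6 erythroid markers. They included 4 of 7 Schwann cell precursor markers and all 5 chromaffin markers. A marker that was not counted adds nothing to its sum. The sensory sum was mostly *Ntrk3* (399 to 864 counts) and the chromaffin sum mostly *Chga* (2161 to 2967 counts). The chromaffin marker *Pnmt* did not overlap, with 28 and 55 counts in control and 17, 3, and 11 in *Hif1aCKO* libraries. *Penk* had 57 counts in control replicate 6 and at most 2 in the others. The part of these cells in the results was not tested. *Xist* was at 3974 and 4597 counts in control replicate 5 and *Hif1aCKO* replicate 3 and at most 3 in the other libraries, so each genotype held libraries of both sexes.

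Between the genotypes, *E2f1* in *Hif1aCKO* neurons was 3.42-fold higher and *E2f2* 1.67-fold higher, and no other member had groups of libraries that did not overlap. The other 8 genes overlapped between genotypes. No member was called. Of the 10 genes, 0 were called by edgeR, where 0% of all genes were called, and 0 by limma-voom and DESeq2, of which DESeq2 called 0.388% of the genes it tested. At an unadjusted p-value under 0.05 there was 1 member, *E2f1*, compared with 7.67% of all genes (3.83% higher and 3.85% lower in *Hif1aCKO*). The 2 genes with groups that did not overlap, both higher, compare with 25.7% of all genes in either direction and 12.9% in that direction. On the log2 fold change scale 6 genes lay above 0 and 4 below it, with a median of 0.29 compared with 0.012 over all genes. Permuting 2 against 3 libraries exactly for any 1 gene gives a one-sided p-value of 0.1 at the least, so this design cannot pass 0.05 that way.

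**Figure D1:**
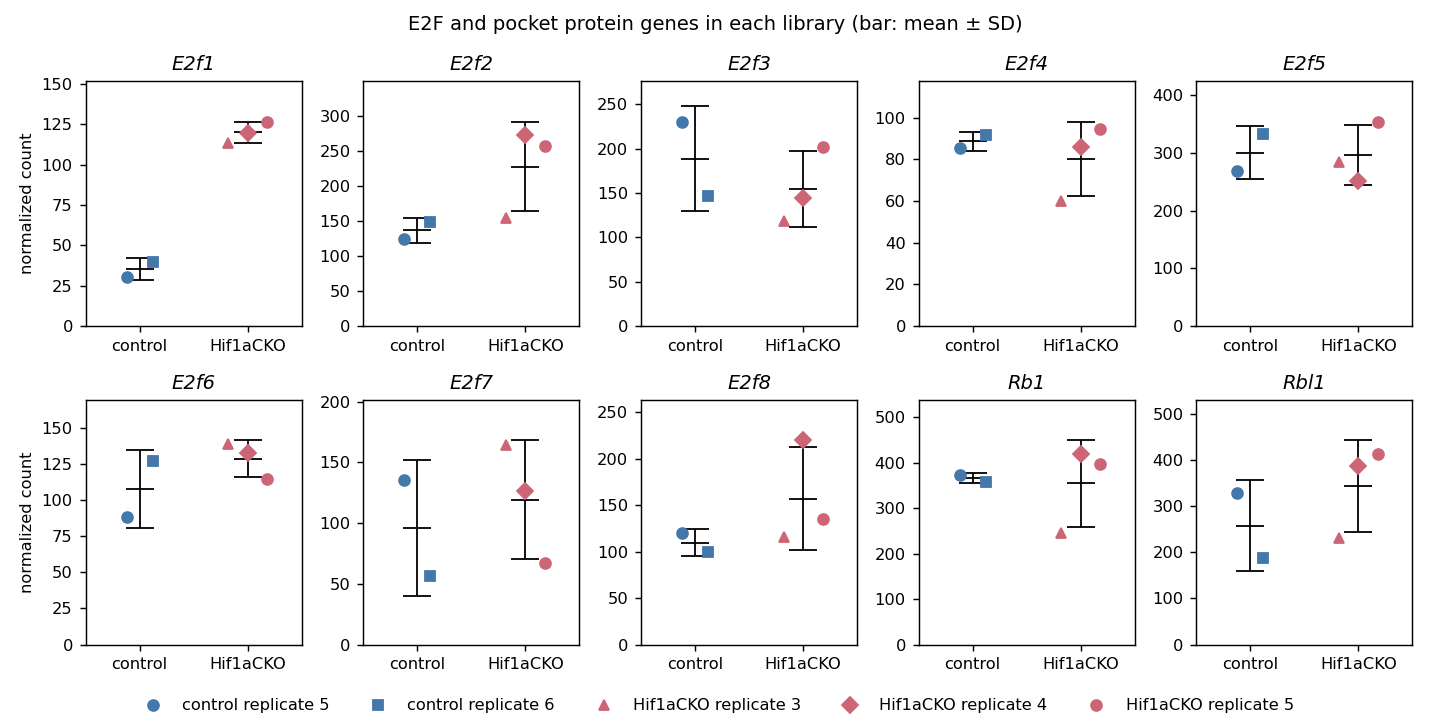
Normalized counts of the 10 genes in each of the 5 libraries (blue, control; red, *Hif1aCKO*; the marker shape gives the replicate), with the mean and SD of each group in black. The *E2f1* values of the *Hif1aCKO* libraries (114 to 126) all lie far above those of the control libraries (30.2 and 39.9), whereas for 8 genes the groups overlap.

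Among the activators, *E2f1* (ENSMUSG00000027490, chromosome 2, 154559407 to 154569892), which drives entry into S phase and can also trigger apoptosis, had 30.2 and 39.9 normalized counts in the control libraries. In *Hif1aCKO* replicates 3, 4, and 5 it had 114, 119.8, and 126. Every *Hif1aCKO* library was thus far above both control libraries, and the spread within each genotype was small. The means were 35.04 ± 6.84 (SD, n = 2) and 120.0 ± 6.42 (SD, n = 3), so that the log2 fold change was 1.77 ± 0.39 (standard error) with an edgeR adjusted p = 0.586. The 95% interval of the log2 fold change ran from 0.88 to 2.66, and the unadjusted p-value of 0.00232 ranked at place 54 of the 15032 genes. DESeq2 gave an adjusted p-value of 0.0540, which does not pass the threshold. The study listed *E2f1* among its changed genes from these libraries, so this difference is not independent evidence. The raw counts were 29 and 43 in the controls, with exact Poisson 95% intervals of 19.4 to 41.6 and 31.1 to 57.9, and between 106 and 130 in the *Hif1aCKO* libraries, with intervals from 86.8 to 154. The intervals of the genotypes did not overlap, but they cover counting error only and not differences between embryos. The difference was of like size in both sexes, with a log2 ratio of 1.91 in the libraries with *Xist* and 1.63 in those without, and it was 1.81 without *Hif1aCKO* replicate 3, the library with Schwann cell precursor markers.

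*E2f2* (ENSMUSG00000018983, chromosome 4, 136172394 to 136196057), an activator that is strongly tied to dividing cells, had 124 and 148 normalized counts in control and 154, 272, and 256 in *Hif1aCKO* replicates 3, 4, and 5. Replicate 3 lay just above the higher control library, whereas the other two were well above it. Its log2 fold change was 0.74 ± 0.33 (standard error) with an edgeR adjusted p = 0.668, and with a 95% interval from -0.022 to 1.50 that holds both no change and a 2.83-fold increase. Within the libraries with *Xist* the log2 ratio was 0.32, and within those without it 0.83. *E2f3* (ENSMUSG00000016477, chromosome 13, 29906575 to 29986063), an activator with isoforms from separate promoters, had 230.2 and 147 normalized counts in control and 118, 145, and 201 in *Hif1aCKO* libraries. Its groups overlapped, and the log2 fold change was -0.28 (95% interval -1.10 to 0.53).

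The repressor E2Fs that act with pocket proteins overlapped between genotypes. *E2f4* (ENSMUSG00000014859, chromosome 8, 105297663 to 105305370), the main E2F of resting cells, had 85.4 and 91.8 normalized counts in control and 60.0, 85.9, and 94.4 in *Hif1aCKO* libraries. *E2f5* (ENSMUSG00000027552, chromosome 3, 14578641 to 14606309) had 269 and 333 in control and 284, 252, and 354 in *Hif1aCKO* libraries. For both genes the control libraries lay inside the range of the *Hif1aCKO* libraries. The log2 fold changes were -0.14 (95% interval -1.07 to 0.78) for *E2f4* and -0.021 (95% interval -0.60 to 0.56) for *E2f5*. As ratios of *Hif1aCKO* to control, these intervals run from 0.477 to 1.72 for *E2f4* and from 0.658 to 1.48 for *E2f5*. They leave room for a change in either direction.

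*E2f6* (ENSMUSG00000057469, chromosome 12, 16810963 to 16839742) encodes the E2F that works without pocket proteins to silence germline genes. It had 88.5 and 127 normalized counts in control and 139, 133, and 115 in *Hif1aCKO* libraries, and its log2 fold change was 0.26 (95% interval -0.52 to 1.03), or 0.019 without control replicate 5. The atypical repressor *E2f7* (ENSMUSG00000020185, chromosome 10, 110745439 to 110787384) had 135 and 56.6 normalized counts in control and 164, 127, and 67.1 in *Hif1aCKO* libraries. It varied more within each genotype than between them, with 1 low library in each, and its log2 fold change of 0.31 had the widest 95% interval of the 10 genes, -0.87 to 1.50. *E2f8* (ENSMUSG00000046179, chromosome 7, 48866429 to 48881596), which restrains the activators late in S phase, had 119.8 and 99.2 normalized counts in control and 116, 219.7, and 135 in *Hif1aCKO* libraries. *Hif1aCKO* replicate 4 stood above the other 4 libraries, and the log2 fold change was 0.52 (95% interval -0.34 to 1.38), or 0.20 without that library. The antisense gene *Gm2788* covers 11.2% of the exonic bases of *E2f8*, and the counting was not stated to use strand.

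Of the pocket proteins, *Rb1* (ENSMUSG00000022105, chromosome 14, 73183673 to 73325822), the retinoblastoma tumor suppressor that binds the activators, had 374 and 358 normalized counts in control and 246, 419, and 398 in *Hif1aCKO* libraries. The controls lay between the lowest and the other *Hif1aCKO* libraries, and the log2 fold change was -0.046 (95% interval -0.68 to 0.58). *Rb1* shares 8.11% of its exonic bases with *Rcbtb2* and 6.78% with *Lpar6*, both on the opposite strand. *Rbl1* (ENSMUSG00000027641, chromosome 2, 157145893 to 157204534), whose product p107 binds mainly E2F4 and is itself made in S phase, had 328 and 187 normalized counts in control and 231, 386, and 414 in *Hif1aCKO* libraries. Its log2 fold change was 0.42 (95% interval -0.38 to 1.21), or 0.061 without control replicate 6.

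Within the sexes, 6 of the 10 genes had log2 ratios of opposite sign. The ratio in the libraries with *Xist* and in those without was -0.96 and 0.24 for *E2f3*, 0.080 and -0.14 for *E2f5*, 0.65 and -0.037 for *E2f6*, -0.049 and 0.84 for *E2f8*, -0.61 and 0.19 for *Rb1*, and -0.51 and 1.09 for *Rbl1*. With 1 control library and 1 or 2 *Hif1aCKO* libraries of each sex, these differences were not tested.

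**Figure D2:**
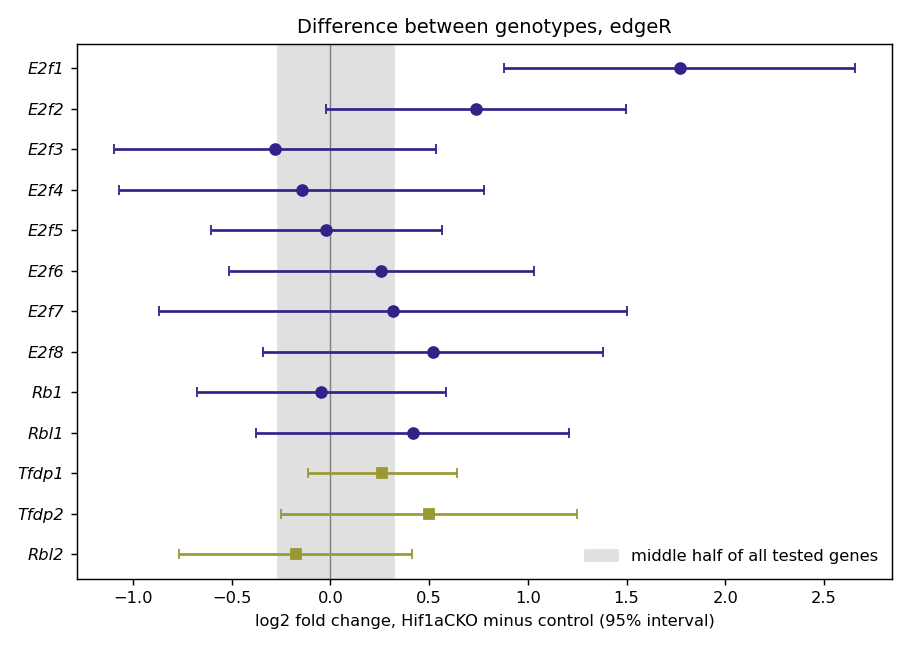
Log2 fold change of *Hif1aCKO* over control with its 95% interval from edgeR for the 10 genes (circles) and for *Tfdp1*, *Tfdp2*, and *Rbl2* (squares), with the interquartile range of all 15032 genes in gray. The interval of *E2f1* (0.88 to 2.66) is the only one that does not reach 0.

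Among themselves the genes did not follow a common order over the libraries. *E2f2*, *E2f8*, and *Rb1* were highest in *Hif1aCKO* replicate 4, *E2f1*, *E2f4*, *E2f5*, and *Rbl1* in *Hif1aCKO* replicate 5, *E2f6* and *E2f7* in *Hif1aCKO* replicate 3, and *E2f3* in control replicate 5. *E2f3*, *E2f4*, and *Rb1* were lowest in *Hif1aCKO* replicate 3. On the log2 scale the SD over the 5 libraries was 0.98 for *E2f1* and between 0.21 and 0.67 for the other genes.

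To compare the genes with each other, levels were expressed as CPM per kb of exonic length. On this scale *E2f5* had the highest level by far, with a mean of 19.1 CPM per kb. Its range of 16.1 to 22.7 over the libraries did not overlap with that of any other gene. *Rb1* followed with 6.82 CPM per kb and *Rbl1* with 5.90, then *E2f2* with 4.47, *E2f4* with 3.89, *E2f3* with 3.54, *E2f1* with 3.12, *E2f8* with 2.90, *E2f6* with 2.43, and *E2f7* with 1.40. Apart from *E2f5* and *Rb1*, the ranges of each pair of neighbors in this order overlapped. The order rests on division by all annotated exonic bases, 1782 for *E2f5* and 6015 for *Rb1*. In raw counts summed over the libraries, *Rb1* (1803) and *Rbl1* (1544) were above *E2f5* (1498). Whether the transcripts in these cells have the annotated lengths was not tested. The level of *E2f1* was 1.27 ± 0.25 CPM per kb (SD, n = 2) in control neurons, close to that of *E2f7* (1.22 ± 0.71), and 4.35 ± 0.23 (SD, n = 3) in *Hif1aCKO* neurons, between those of *E2f4* (3.73 ± 0.83) and *E2f2* (5.32 ± 1.49).

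**Figure D3:**
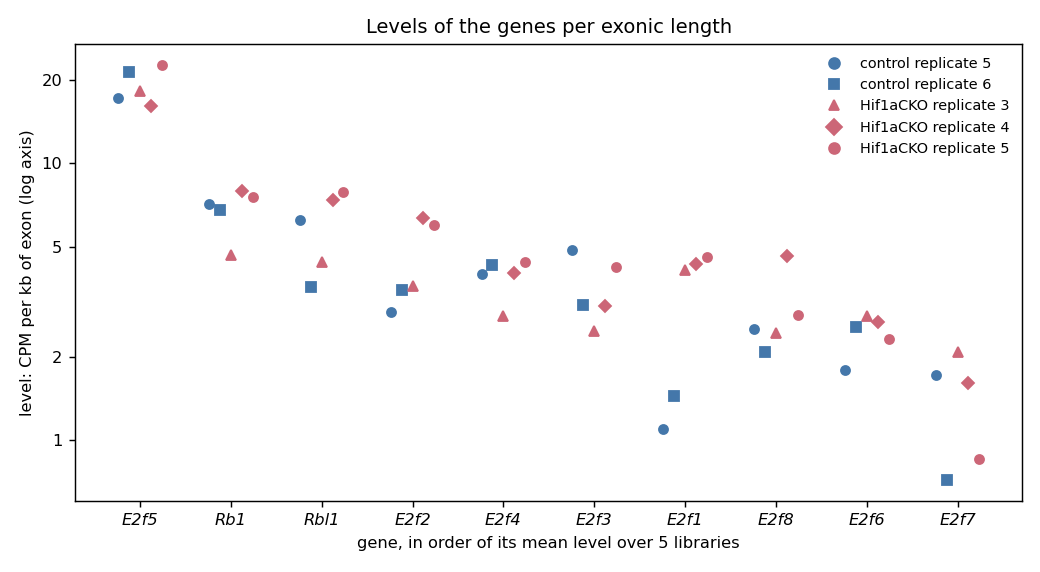
Level of each gene in CPM per kb of exon (log axis) in the 5 libraries, with the genes in order of their mean level. *E2f5* stands above all others (16.1 to 22.7 CPM per kb), and *E2f1* is the gene in which the blue control points and the red *Hif1aCKO* points are farthest apart.

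The make-up of the E2F transcripts was described by the share of each gene in the summed per-length level of *E2f1* to *E2f8*. The activators *E2f1* to *E2f3* made up 24.5% and 20.5% in the controls, compared with 26.5%, 32.1%, and 30.9% in *Hif1aCKO* replicates 3, 4, and 5. *E2f1* alone made up 3.03% and 3.71% in control and 10.7%, 10.2%, and 9.56% in *Hif1aCKO* libraries. The higher activator share thus lay in *E2f1* and, in replicates 4 and 5, *E2f2*, while the share of *E2f3* was 13.4% and 7.91% in control and 6.44% to 8.85% in *Hif1aCKO* libraries. *E2f4* and *E2f5* together made up 58.8% and 65.7% in control and 54.5%, 47.1%, and 56.6% in *Hif1aCKO* libraries. The ratio of the *E2f1* to the *E2f4* level was 0.275 and 0.338 in control and 1.47, 1.09, and 1.04 in *Hif1aCKO* libraries. These shares use the same counts as the comparison above and the annotated exonic lengths, and they were not tested. In a pool of cells, a higher level in each cell and a larger number of expressing cells cannot be told apart.

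The genes whose pattern over the 5 libraries was most like that of *E2f1* were found among the 10841 genes with a mean normalized count of at least 50. Likeness was the root mean square difference of log2 values centered on each gene's mean. The nearest were *Yars2* (0.208), *Coq2* (0.211), *Mcc* (0.215), *Wrnip1* (0.234), and *Gm28320* (0.242), and no other E2F or pocket protein gene was among them.

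Of the partners, *Tfdp1*, which encodes the main dimerization partner of E2F proteins, had 778 and 738 normalized counts in control and 818, 963, and 948 in *Hif1aCKO* libraries. All *Hif1aCKO* libraries lay above the controls, with a log2 fold change of 0.26 (95% interval -0.11 to 0.64). *Tfdp2*, the other partner, had a log2 fold change of 0.50 (95% interval -0.25 to 1.25), and *Rbl2*, which encodes the third pocket protein p130, of -0.18 (95% interval -0.77 to 0.41). The groups overlapped for both. The range of *Tfdp1* in normalized counts, 738 to 963, was above that of every E2F gene, but levels of different genes are not compared on this scale.

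Among the cyclins and kinases that phosphorylate pocket proteins, *Ccnd1* was lower and *Cdk6* higher in *Hif1aCKO* neurons at an unadjusted edgeR p-value under 0.05. The other 6 of the 8 genes overlapped between genotypes. Over all genes, 7.67% had such a p-value and 25.7% did not overlap, counting either direction. *Ccnd1*, which encodes the D-type cyclin that starts the phosphorylation of RB1, had 30816 and 23885 normalized counts in control and 19059, 18417, and 18214 in *Hif1aCKO* libraries. All *Hif1aCKO* libraries lay below the controls, and the log2 fold change was -0.56 ± 0.11 (standard error) with an edgeR adjusted p = 0.567. DESeq2 called *Ccnd1* (adjusted p = 0.0194). The study's list from these libraries holds the gene, and 23.4% of its exonic bases also belong to *LTO1* on the opposite strand. *Cdk6*, a partner of D-type cyclins, had 15.6 and 19.5 normalized counts in control and 42.9, 132, and 25.3 in *Hif1aCKO* libraries, so that its log2 fold change of 1.92 rested largely on replicate 4 (0.95 without it). The other kinase of D-type cyclins, *Cdk4*, had a log2 fold change of 0.082 (95% interval -0.18 to 0.34).

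Of the CDK inhibitors, 5 of 7 were tested and none had an unadjusted edgeR p-value under 0.05, compared with 7.67% of all genes. *Cdkn1a*, which encodes p21, had a log2 fold change of 0.50 (95% interval -0.07 to 1.08). The log2 fold changes of the others were -0.73 for *Cdkn2c*, with 1 to 24 raw counts, 0.16 for *Cdkn1c*, 0.092 for *Cdkn1b*, which encodes p27 and is added to complete the list, and 0.049 for *Cdkn2d*, the most abundant, with 1757 to 1830 normalized counts in control and 1668 to 1980 in *Hif1aCKO* libraries. Of the 4 genes that act on E2F protein stability, all lay above 0 with a median log2 fold change of 0.51, compared with 51.3% of all genes above 0. For 3 of them all *Hif1aCKO* libraries lay above the controls, compared with 12.9% of all genes. *Skp2*, the F-box protein that marks p27 and E2F1 for degradation, had 242 and 186 normalized counts in control and 516, 319.5, and 379 in *Hif1aCKO* libraries. Its log2 fold change was 0.92 ± 0.28 (standard error), with an edgeR adjusted p = 0.599. The log2 fold change was 0.37 for *Ccnf*, 0.65 for *Fzr1* (0.32 without *Hif1aCKO* replicate 4), and 0.25 for *Fbxo5*.

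**Figure D4:**
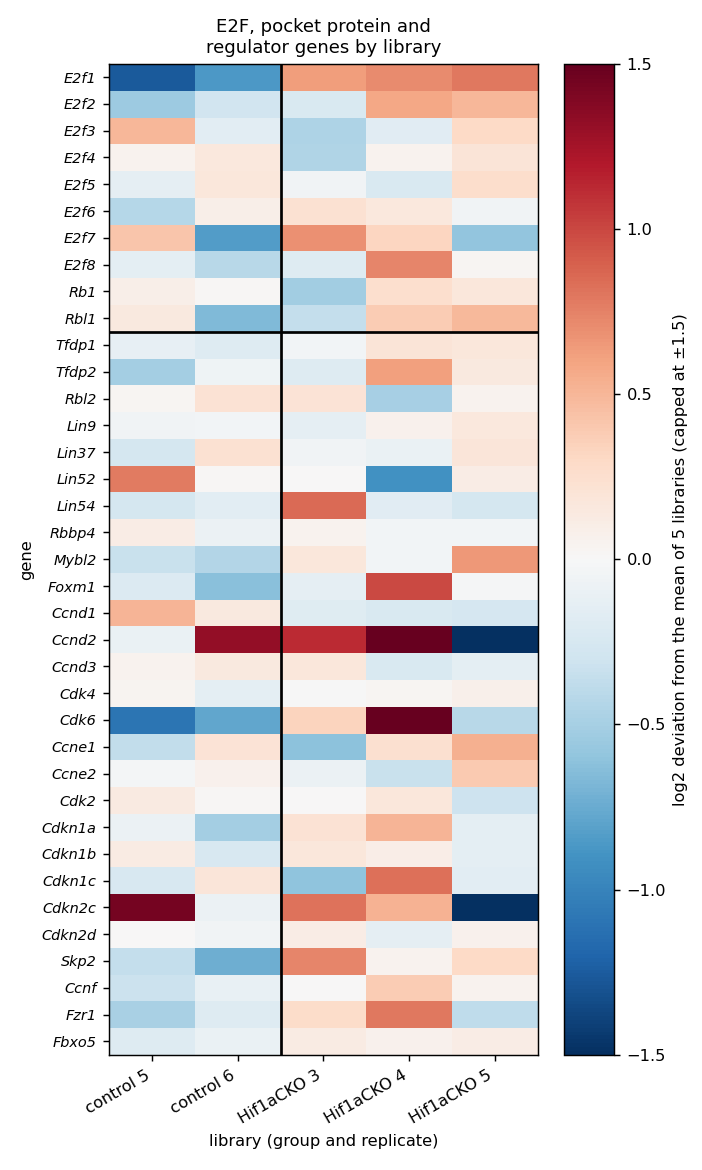
Log2 deviation of each gene from its mean over the 5 libraries (red, above; blue, below) for the 10 genes above the line and for partners, MuvB genes, cyclins, kinases, CDK inhibitors, and turnover genes below it. The row of *E2f1* changes from blue to red at the line between control and *Hif1aCKO* libraries, whereas most other rows are mixed within a genotype.

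The MuvB core joins pocket proteins and E2F4 into the DREAM complex, which silences the cell cycle in resting cells, and later joins B-Myb and FoxM1 to switch on late genes. The groups overlapped for each core gene, with log2 fold changes of -0.64 for *Lin52* (-0.22 without control replicate 5) and -0.031 for *Rbbp4*, the most abundant. *Mybl2*, which encodes B-Myb, had 88.5 and 82.5 normalized counts in control and 127, 109, and 176 in *Hif1aCKO* libraries (log2 fold change 0.68, 95% interval -0.13 to 1.50). *Foxm1* had 232 and 173 in control and 242, 531, and 264 in *Hif1aCKO* libraries (log2 fold change 0.77, 95% interval -0.10 to 1.64, or 0.32 without *Hif1aCKO* replicate 4). For both, all *Hif1aCKO* libraries lay above the controls, and neither had an unadjusted p-value under 0.05. These 2 of the 7 genes compare with 12.9% of all genes in that direction and 25.7% in either direction.

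Of the 8 corepressor genes through which pocket proteins silence chromatin, 7 lay above 0, compared with 51.3% of all genes. Their median log2 fold change was 0.24. In edgeR's test 0 had an unadjusted p-value under 0.05, compared with 7.67% of all genes. The log2 fold changes were 0.49 for *Rbbp8*, 0.35 for *Hdac2*, 0.32 for *Arid4b*, and -0.088 for *Rbbp7*. Of the 9 E2F6 partner genes, 6 lay above 0 with a median of 0.033, and again 0 had an unadjusted p-value under 0.05 in edgeR. The log2 fold changes were -0.79 for *Max*, 0.26 for *Yaf2*, 0.86 for *Ring1*, and 0.033 for *Rnf2*, and of these the groups did not overlap for *Max* alone. In the whole list 1 gene did not overlap in each direction, compared with 12.9% of all genes. Of 5 germline genes silenced by E2F6, 3 were tested. *Stag3* (log2 fold change -0.73, or -0.21 without control replicate 6) and *Tuba3b* (-0.073) overlapped between genotypes. *Smc1b* had 1 and 0 counts in the controls, compared with 18, 1, and 20 in the *Hif1aCKO* libraries, so its groups overlapped, although it was the 1 gene of its list with an unadjusted p-value under 0.05.

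The transcripts that E2F proteins act on were described in lists chosen with earlier results of these libraries known. Of 40 E2F targets of G1/S and S phase, 34 lay above 0 and 6 below it in *Hif1aCKO* neurons, compared with 51.3% of all genes above 0. The median log2 fold change was 0.20. For 14 all *Hif1aCKO* libraries lay above the controls and for 0 the reverse, compared with 12.9% of all genes in each direction. In edgeR's test 6 were higher at an unadjusted p-value under 0.05, where 3.83% of all genes were. *Tyms*, thymidylate synthase, had 1208 and 1124 normalized counts in control and 1613, 1709.6, and 2081 in *Hif1aCKO* libraries, and a log2 fold change of 0.63 (edgeR adjusted p = 0.586). The log2 fold change was 0.48 for *Ccna2*, the cyclin of S phase, and 0.95 for *Ung*, a uracil DNA glycosylase. *Rrm2*, the ribonucleotide reductase subunit with the highest count of the list, had 8059.8 and 6261 normalized counts in control and 7468, 5329, and 7083 in *Hif1aCKO* libraries, so that its groups overlapped (log2 fold change -0.11). With each gene centered on its own mean log2 value, the median over the list was -0.077 and -0.18 in the controls, compared with -0.015, 0.065, and 0.23 in *Hif1aCKO* replicates 3, 4, and 5.

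Of 24 DREAM targets of G2 and mitosis, all 24 lay above 0, with a median log2 fold change of 0.66. For 20 of them all *Hif1aCKO* libraries lay above the controls, compared with 12.9% of all genes. In edgeR's test 18 had an unadjusted p-value under 0.05, compared with 3.83% of all genes in that direction. Calls numbered 0 by edgeR and 9 by DESeq2, which called 0.388% of the genes it tested. The study's list from the same libraries holds 9 of these genes, so these counts are not independent evidence. *Plk1*, the Polo-like kinase, had 751 and 834 normalized counts in control and 1534, 1619.7, and 1389 in *Hif1aCKO* libraries, and a log2 fold change of 0.93 (edgeR adjusted p = 0.471, DESeq2 adjusted p = 1.7e-04). The log2 fold change was 0.84 for *Cenpe*, a kinetochore motor, 0.78 for *Mki67*, and 0.25 for *Top2a*, a topoisomerase. *Top2a* had the highest mean normalized count of the list, but per kb of exon it was below *Cdc20* (56.7 compared with 142.8 CPM per kb). The median of the centered values was -0.33 and -0.48 in the control and 0.15, 0.50, and 0.12 in the *Hif1aCKO* libraries. These medians did not overlap between the genotypes. They are not independent evidence either, since the list was chosen with earlier results of these libraries known.

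Of 8 apoptosis genes that E2F1 is known to activate, 7 were tested. The groups did not overlap for 3, all lower in *Hif1aCKO* neurons, compared with 12.9% of all genes in that direction. *Apaf1*, which assembles the apoptosome, had 369 and 269.9 normalized counts in control and 129, 143, and 145 in *Hif1aCKO* libraries (log2 fold change -1.20, edgeR adjusted p = 0.586). *Apaf1* is on the study's list from these libraries. *Casp9* had 269 and 240.2 in control and 82.6, 176, and 194 in *Hif1aCKO* libraries (log2 fold change -0.75). DESeq2 did not call *Apaf1* (adjusted p = 0.0529). The median of the list was -0.015, which was the value of a gene with few counts. That gene had 15 and 1 raw counts in control and 22, 1, and 0 in *Hif1aCKO* libraries. The median therefore does not show that the list as a whole was unchanged.

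**Figure D5:**
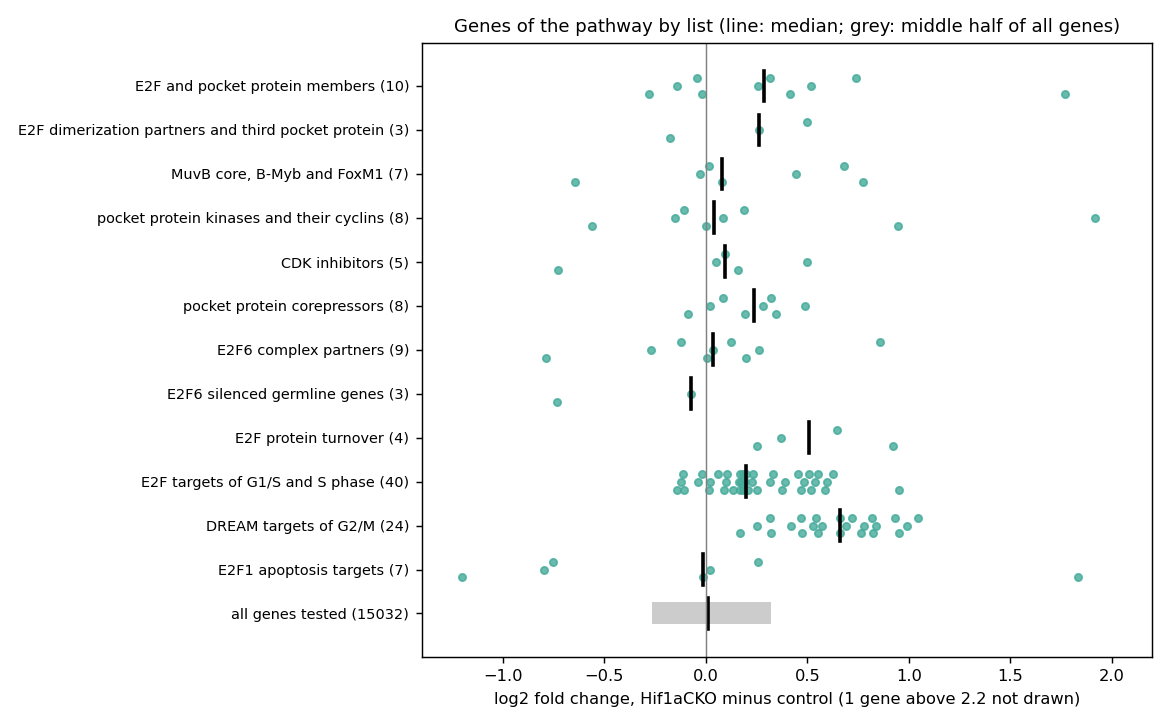
Log2 fold change of *Hif1aCKO* over control for each tested gene (points) of the pathway lists, with the median of each list as a black line and the number of genes tested in parentheses. The gray bar is the interquartile range of all 15032 genes. The DREAM targets of G2 and mitosis have the highest median (0.66), all 24 lie above 0, and 1 gene above 2.2 (*Smc1b*) is not drawn.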

How the data were processed

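RNA-seq was analyzed in 2 control and 3 *Hif1aCKO* libraries. The authors trimmed the reads (cutadapt version 1.18, per the submitters' notes), removed ribosomal and vector sequences, mapped to GRCm38 with STAR (version 2.7.0c), and deposited raw counts per gene from uniquely mapped reads, so near-identical copies lose reads. Nothing in the deposited counts was normalized. Genes on the opposite strand also share exonic bases with reported genes not flagged above, such as *Cdkn1c* (30.7%), *Cdk4* (19.7%), *Hand2* (19.6%), and *Ccna2* (12.5%). Among the S phase targets the share reached 78.8%. Here, names, positions, and exonic lengths were taken from GENCODE M21 (GRCm38), which holds 20195 of the 20224 identifiers. The fit used edgeR (version 4.0.16) with TMM, filterByExpr, and the quasi-likelihood test in R (version 4.3.3), with genotype as the only term and Benjamini-Hochberg adjustment over 15032 genes. Intervals are 95% intervals from the same fit. CPM used the total count of the genes that passed the filter times the TMM factor, except in marker sums, which used the total count of all genes. The tests were checked on simulated counts, with less spread between libraries than here and changes only in genes of larger count than *E2f1*. That check does not show how the tests perform on these libraries. DESeq2 (version 1.42.0) and limma-voom (limma version 3.58.1) were alternatives. Genes outside the family were named by rule. From each list these were up to 3 genes with the smallest p-value and the gene with the highest mean normalized count. Added to them were the partners and *Rbl2*, the deleted gene, the drivers, markers, and the 5 genes nearest to *E2f1*. A gene that this rule names is not reported here. The genes, lists, and tests were chosen with earlier results of these data known. Nothing states whether the libraries of a genotype came from separate litters, so p-values measure the spread between these libraries. Figures were drawn with matplotlib (version 3.10.9).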

Additional observations from a re-analysis of the deposited data

How the results depend on the processing

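No member was called under any alternative (RLE or upper-quartile factors, DESeq2, limma-voom, other filters on low counts or thresholds, sex as a term, or each library left out, where a lone control was assumed to vary like the *Hif1aCKO* libraries). Over all genes, DESeq2 called 60, and leaving out a library gave between 0 and 4 (*Parva*, *Rgs4*, *Gm10260*, and *Gm26619* without control replicate 5, named after their values were seen). The members with groups that did not overlap were between 2 and 5 when a library was left out, since fewer libraries overlap less. *E2f1*, *E2f2*, *E2f6*, *E2f8*, and *Rbl1* kept their sign in the 12 alternatives fitted over both sexes, but within 1 sex *E2f6*, *E2f8*, and *Rbl1* did not (-0.037, -0.049, and -0.51). With a library left out, the log2 fold change of *E2f1* ranged from 1.58 to 1.98, *E2f2* from 0.59 to 0.95, *E2f3* from -0.58 to 0.076, *E2f4* from -0.28 to 0.023, *E2f5* from -0.17 to 0.14, *E2f6* from 0.019 to 0.54, *E2f7* from -0.19 to 1.07, *E2f8* from 0.20 to 0.70, *Rb1* from -0.19 to 0.16, and *Rbl1* from 0.061 to 0.87. Upper-quartile factors gave 0.015 for *E2f5* and 0.0033 for *Rbbp4*, and sex as a term gave -0.027 for *Cdkn1c*. The values of other named genes were added after seeing the data, and with a library left out these changed sign: *Cdk4* (-0.015 to 0.18), *Cdkn1c* (-0.36 to 0.43), *Cdkn2c* (-1.32 to 0.25), *Cdkn2d* (-0.0017 to 0.12), *Prph* (-0.040 to 0.37), *Rbbp4* (-0.13 to 0.070), *Rbbp7* (-0.19 to 0.046), *Rbl2* (-0.32 to 0.0025), *Rnf2* (-0.11 to 0.14), *Rrm2* (-0.29 to 0.080), and *Tuba3b* (-0.32 to 0.053). Others kept their sign but reached values nearer to 0, such as *Tfdp2* (0.26), *Cdkn1a* (0.30), *Hdac2* (0.16), *Arid4b* (0.11), *Yaf2* (0.13), *Max* (-0.49), *Ring1* (0.52), *Ccna2* (0.30), and *Casp9* (-0.46). The cause was not tested. No paired analysis was possible because the groups share only replicate number 5.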
